A study of Mus musculus with 16 samples.

Results

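The 9 genes described here encode the transcription factors that define midbrain dopaminergic neurons, and they were taken as a fixed list by name from the 25006 genes in the count tables. They comprise the nuclear receptor Nr4a2, the homeodomain factors Pitx3, En1, En2, Lmx1a and Lmx1b, the forkhead factors Foxa1 and Foxa2, and the helix-loop-helix factor Ebf3. The rule that lists them uses no measured value, although results of these data were known when it was written. During development these factors act in sequence and then together: Foxa1, Foxa2, Lmx1a and Lmx1b set up the floor plate progenitors, and Nr4a2, Pitx3, En1 and En2 act in postmitotic neurons to switch on and maintain the genes of dopamine synthesis, storage and reuptake. Several of them are still needed in the adult for the survival of substantia nigra neurons, which are the cells lost in Parkinson's disease.

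The mRNA was collected from dopaminergic neurons of the substantia nigra by RiboTag, where neurons are made to express a tagged subunit of the ribosome and the ribosomes are pulled down with the mRNA bound to them. Control mice (n = 8) were DAT-Cre +/-, and MCU-KO mice (n = 8) were DAT-Cre+/- MCU fl/fl so that Mcu, which encodes the pore of the mitochondrial Ca2+ uniporter, is targeted for deletion in cells that express the dopamine transporter. All 16 mice carried 1 DAT-Cre allele, received an AAV with a Cre-dependent RiboTag construct and were listed as p45 (day 45), and the tissue was taken 30 days after the injection. The question for the 9 genes is whether the identity of the neurons, as read from these factors, differed between the genotypes. The control mice came from a cross of DAT-Cre and C57/BL6 mice and carried no floxed allele, so an effect of the deletion and one of the breeding cannot be told apart. Cre was driven by the dopamine transporter gene, so Mcu is targeted in all neurons that use it, whereas only infected neurons carried the tag.

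The counts per mouse summed to between 18999107 and 22016362 in control and between 14129527 and 20582204 in MCU-KO, where MCU-KO mouse 8 was lowest, and 3 counts corresponded to between 0.136 and 0.212 CPM (counts scaled by the TMM library size). Mcu itself had between 6.25 and 43.1 CPM in control and between 0.301 and 21.3 CPM in MCU-KO, and the groups overlapped. The fitted difference (MCU-KO minus control, log2 scale) was -1.19 with a 95% confidence interval from -2.41 to 0.04, and the genotypes used here are those of the labels. The paper verified the knockout by qRT-PCR of Mcu in RiboTag mRNA and by imaging of mitochondrial Ca2+, neither of which is part of these counts. The dopaminergic neuron markers Th, Slc6a3, Slc18a2 and Ddc together had between 11205 and 14382 CPM in control and between 9738 and 16820 CPM in MCU-KO. Oligodendrocyte markers, which tagged dopaminergic neurons should lack, summed to between 2627 and 5132 CPM in control and to between 3073 and 6158 CPM in MCU-KO, and 5 of 5 of them had a positive log2 fold change with 0 past the threshold. The summed astrocyte markers ranged from 236 to 466 CPM and from 242 to 656 CPM, the microglia markers from 22.6 to 78.0 CPM and from 26.9 to 121 CPM, and the GABAergic neuron markers from 147 to 324 CPM and from 137 to 333 CPM, in control and MCU-KO in turn. The markers of serotonergic neurons, which also use Lmx1b and En1, were Tph2, Fev and Slc6a4, which summed to at most 9.10 CPM in control and 15.9 CPM in MCU-KO. Nearly all of this was Tph2, which reached those levels in single mice and was at 0 in 1 control and 4 MCU-KO mice, whereas Fev was at 0 in 15 of 16 mice.

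All 9 factors were detected in every mouse. The smallest count of any of them was 120, for Lmx1a, and all 9 passed the filter on low counts that left 12390 genes for the test. Between MCU-KO and control, 0 of the 9 genes had an adjusted p under 0.05, against a background of 0.178% of all genes tested (22 of 12390, quasi-likelihood test of edgeR, Benjamini-Hochberg adjusted). With an unadjusted p under 0.05, 0 of the 9 passed, against 4.41% of all genes tested. DESeq2, which calls 0.557% of its 16171 genes, and limma-voom, which calls 0.218%, also called 0 of the 9. The CPM of the genotypes overlapped in all 9 genes, whereas 0.250% of all genes tested had no overlap. Of the 9 log2 fold changes, 6 were above 0 and 3 below, with a median of 0.02, and the median of all genes tested was 0.00 (6241 above 0 and 6149 below). An interval wholly between -1 and 1 was found for 9 of the 9 factors and for 51.8% of all genes tested. Each library is 1 mouse, so mice are the units, and these intervals give the uncertainty of the difference between the genotypes. Fewer tagged neurons and less mRNA per neuron cannot be told apart in such samples.

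**Figure D1:**
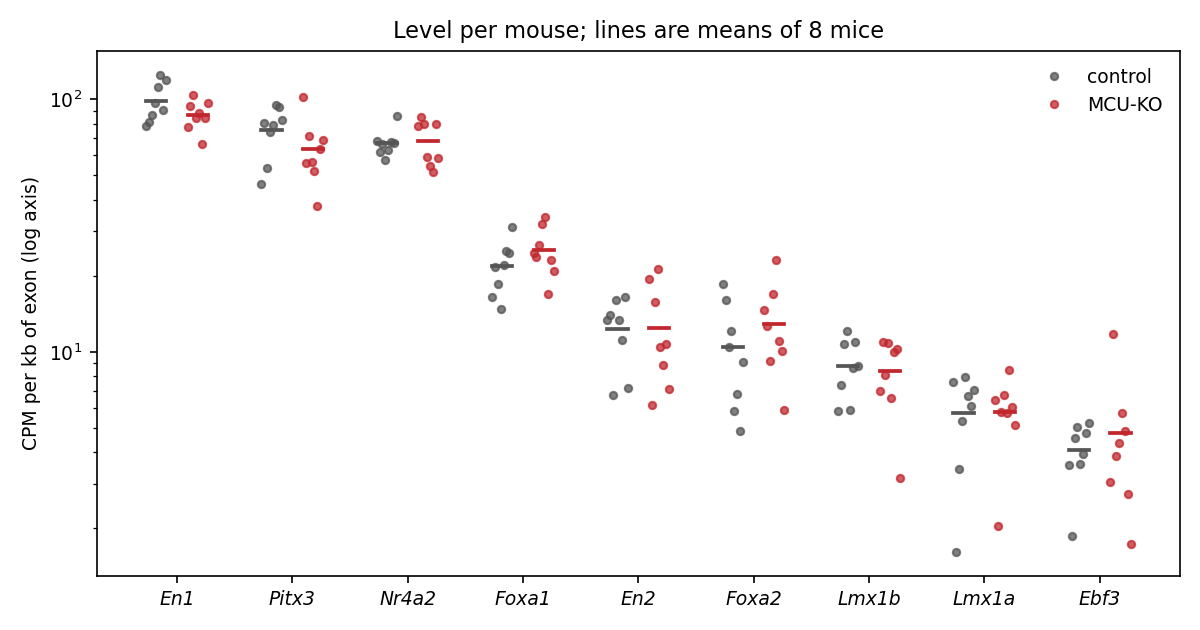
CPM per kb of exon (log axis) of the 9 factors in each mouse, ordered by the control mean. Grey points are the 8 control mice, red points the 8 MCU-KO mice, and horizontal lines the means. The groups overlap for each gene, and En1, Pitx3 and Nr4a2 lie above the other genes in each mouse.

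Nr4a2, also called Nurr1, is an orphan nuclear receptor that binds the regulatory regions of Th, Slc6a3 and Slc18a2 and without which midbrain dopaminergic neurons do not form. Its gene (ENSMUSG00000026826) is at 57106830 to 57124003 on chromosome 2 of GRCm38, minus strand. In other cells its transcription responds quickly to Ca2+ and cAMP through the factor CREB, and its promoter is shown for that reason. Mcu carries Ca2+ into mitochondria, and the paper found cytosolic Ca2+ transients evoked by a glutamate receptor agonist unaffected in MCU-KO neurons. A link between CREB and the deletion was not tested. The sequence gives the 250 bases before the start site in RefSeq (GRCm38.p6, chr2:57124004-57124253, minus strand), and the capitals mark the short form of the CREB binding motif, TGACG, and its reverse complement CGTCA.
Nr4a2 promoter: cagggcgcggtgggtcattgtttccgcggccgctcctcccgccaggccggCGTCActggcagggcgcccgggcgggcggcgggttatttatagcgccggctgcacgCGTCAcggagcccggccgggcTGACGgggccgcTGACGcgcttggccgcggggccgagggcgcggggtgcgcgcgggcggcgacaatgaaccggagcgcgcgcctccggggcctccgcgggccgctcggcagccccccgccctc
The window holds 4 matches, whose first bases lie at -200, -144, -123 and -111 from the start site. Of all 32851 promoter windows of the same length in the RefSeq table, 17.8% hold at least 1 match and 0.137% hold as many as 4. The windows were not matched for base composition, and binding was not tested. The full palindrome TGACGTCA is in 1.55% of the windows and in none of those held for 8 of the 9 genes. Ebf3 and Lmx1b were the other members with the short form TGACG, and the RefSeq table held no window for En2, which was not searched.

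The levels of Nr4a2 in control ranged from 234 to 348 CPM with a median of 271 CPM, and those in MCU-KO from 209 to 345 CPM with a median of 278 CPM. The ranges were alike because of control mouse 8, since the next highest control mouse had 277 CPM. In MCU-KO, mice 4, 5, 6 and 8 had between 209 and 239 CPM, and mice 1, 2, 3 and 7 between 316 and 345 CPM. The means were 273 ± 33.8 CPM (SD, n = 8) in control and 277 ± 55.2 CPM (SD, n = 8) in MCU-KO. The log2 fold change was 0.02 (standard error 0.12) with a 95% interval from -0.22 to 0.26, which spans 0.856-fold to 1.20-fold. The coefficient of variation between mice was 12.4% in control, the lowest of the 9 genes in that group, and 19.96% in MCU-KO. The difference between these 2 values was not tested. Of its relatives, Nr4a1, an immediate-early gene, had 3.84 ± 4.52 CPM (SD, n = 8) in control and 4.67 ± 4.65 CPM (SD, n = 8) in MCU-KO and was at 0 in 3 of 16 mice. Nr4a3 was at 0 in 8 of 16 mice. Per kb of exon, Nr4a2 exceeded Nr4a1 in 8 of 8 control mice and in 8 of 8 MCU-KO mice, by 19.0-fold and 21.5-fold in the mice where the genes were closest.

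Pitx3, a bicoid-type homeodomain factor, works with Nr4a2 on the dopaminergic genes, and its loss in the aphakia mouse removes most neurons of the substantia nigra. It lies at 46135685 to 46148326 on chromosome 19, minus strand, and 0.655% of its exon bases overlap Elovl3 on the opposite strand. In control, Pitx3 ranged from 70.6 to 145 CPM with a median of 122 CPM, and in MCU-KO from 57.8 to 156 CPM with a median of 91.6 CPM. The highest value of all 16 mice and the lowest were both MCU-KO. The means were 115 ± 26.6 CPM (SD, n = 8) and 96.9 ± 28.7 CPM (SD, n = 8). Pitx3 had the lowest log2 fold change of the 9 genes, -0.25 (standard error 0.18), with a 95% interval from -0.63 to 0.13. Leaving out single mice moved it to between -0.38 and -0.17.
The related gene Pitx1 was at 0 in all 16 mice.

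En1 and En2 are homeodomain repressors of the midbrain and anterior hindbrain, and En1 is required in adult mice for the survival of nigral neurons in a dose-dependent way. En1 lies at 120602418 to 120607992 on chromosome 1, plus strand, and En2 at 28165694 to 28172166 on chromosome 5, plus strand. Because reads of near-identical genes could be split between them, the longest stretch that both coding sequences share is shown for the engrailed and the Lmx1 pair, taken from the GENCODE transcripts, with the shared run in capitals.
En1: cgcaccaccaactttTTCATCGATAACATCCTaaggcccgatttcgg
En2: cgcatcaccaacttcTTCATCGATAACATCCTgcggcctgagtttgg
Lmx1a: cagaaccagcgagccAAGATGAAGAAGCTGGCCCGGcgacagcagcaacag
Lmx1b: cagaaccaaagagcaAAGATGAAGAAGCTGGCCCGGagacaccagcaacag
Identity over the aligned coding bases was highest in the forkhead pair. It was 68.9% for En1 and En2 (962 bases), 73.4% for Foxa1 and Foxa2 (1305 bases) and 72.0% for Lmx1a and Lmx1b (1101 bases). None of the stretches of 50 bases in the transcripts of Nr4a2, Pitx3, Foxa1, Foxa2, En1 and En2 occurs in another gene's transcripts. The share was 0.0598% for Lmx1a, 0.390% for Lmx1b and 2.26% for Ebf3, where all of it matched the gene model Gm45278.

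En1 had between 205 and 328 CPM in control, with a median of 245 CPM, and between 175 and 273 CPM in MCU-KO, with a median of 226 CPM. The 3 highest values of all 16 mice were control mice. The means were 259 ± 46.8 CPM (SD, n = 8) and 228 ± 30.4 CPM (SD, n = 8). The log2 fold change of -0.18 (standard error 0.12) had a 95% interval from -0.42 to 0.06. Its unadjusted p of 0.130 was the smallest of the 9 genes, and its adjusted p was 1.00 (quasi-likelihood test of edgeR, Benjamini-Hochberg adjusted). En2 had between 23.8 and 58.2 CPM in control, with a median of 47.3 CPM, and between 21.9 and 75.5 CPM in MCU-KO, with a median of 37.5 CPM. The MCU-KO values enclosed the control values. The means were 43.4 ± 13.0 CPM (SD, n = 8) and 44.1 ± 20.1 CPM (SD, n = 8), and the log2 fold change was 0.02 (95% interval -0.54 to 0.59).
Per kb of exon, En1 exceeded En2 in 8 of 8 control mice and in 8 of 8 MCU-KO mice. The ratio ranged from 5.50 to 16.6 with a median of 7.18 in control, and from 3.96 to 15.1 with a median of 7.68 in MCU-KO.

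Foxa1 and Foxa2 are forkhead factors that open closed chromatin, and they act in progenitors and again in mature dopaminergic neurons. Foxa1 lies at 57540628 to 57546916 on chromosome 12, minus strand, and Foxa2 at 148042877 to 148046969 on chromosome 2, minus strand. The RefSeq promoter window of Foxa1 holds the letters of the forkhead motif itself, GTAAACA, at -141 from the RefSeq start site. This window lies inside the GENCODE span of the gene given above, so it is not upstream of the GENCODE start. The motif letters are shown in capitals within 30 bases of the RefSeq window (GRCm38.p6, chr12:57546234-57546263, minus strand).
Foxa1 promoter: tatactgctttGTAAACAaagtgagggcca
The motif on either strand is in 3.17% of all windows, and among the 8 of the 9 genes with a window it was matched in Foxa1 alone. The other searches on both strands matched no window of these 8 genes: the Nr4a2 response element AAAGGTCA (1.34% of all windows), the bicoid-type motif GGATTA (6.25%) and the homeodomain core TAATTA (4.84%).

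The levels of Foxa1 ranged from 49.3 to 103 CPM in control, with a median of 72.9 CPM, and from 56.1 to 113 CPM in MCU-KO, with a median of 80.4 CPM. Means were 72.6 ± 17.5 CPM (SD, n = 8) and 83.9 ± 18.8 CPM (SD, n = 8). This gave a log2 fold change of 0.21 (95% interval -0.15 to 0.57). Foxa2 ranged from 11.5 to 44.1 CPM in control, with a median of 23.2 CPM, and from 13.9 to 54.9 CPM in MCU-KO, with a median of 28.0 CPM. Control mice 1 and 2 were the highest and control mice 5 and 7 the lowest of their group. The means were 24.8 ± 11.6 CPM (SD, n = 8) and 30.7 ± 12.7 CPM (SD, n = 8). The log2 fold change was 0.31 with a 95% interval from -0.37 to 0.98, which spans 0.776-fold to 1.97-fold. Leaving out single mice moved it to between 0.13 (without MCU-KO mouse 5) and 0.48.
Foxa1 was above Foxa2 per kb of exon in 7 of 8 control mice, with ratios from 0.884 to 5.07 and a median of 2.60, and in 8 of 8 MCU-KO mice, with ratios from 1.47 to 3.55 and a median of 1.88. The third member of the family, Foxa3, a liver factor, was at 0 in 15 of 16 mice.

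Lmx1a and Lmx1b are LIM homeodomain factors that specify dopaminergic progenitors and remain active in the adult neuron. Lmx1a lies at 167689237 to 167848741 on chromosome 1, plus strand, and Lmx1b at 33560965 to 33640511 on chromosome 2, minus strand. Lmx1a had between 5.49 and 26.9 CPM in control, with a median of 21.7 CPM, and between 6.94 and 28.9 CPM in MCU-KO, with a median of 20.1 CPM. In each genotype mouse 2 was lowest. The means were 19.4 ± 7.43 CPM (SD, n = 8) and 19.7 ± 6.18 CPM (SD, n = 8), and the log2 fold change was 0.02 (95% interval -0.71 to 0.74), the widest interval of the 9 genes.
Lmx1b had between 28.4 and 58.9 CPM in control, with a median of 42.3 CPM, and between 15.5 and 53.5 CPM in MCU-KO, with a median of 44.2 CPM. The lowest value belonged to MCU-KO mouse 8, the mouse with the fewest counts in all. Means were 42.7 ± 11.4 CPM (SD, n = 8) and 40.8 ± 13.2 CPM (SD, n = 8). This gave a log2 fold change of -0.07 (95% interval -0.58 to 0.44). Lmx1b was above Lmx1a per kb of exon in 6 of 8 control mice and in 7 of 8 MCU-KO mice, with median ratios of 1.54 and 1.29.

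Ebf3 belongs to the EBF family of helix-loop-helix factors that act late in neuronal differentiation. It lies at 137193673 to 137314445 on chromosome 7, minus strand, and 3.85% of its exon bases overlap Gm45278 on the opposite strand. Since the strand setting of the counting is not given, reads there cannot be assigned to either gene with certainty. In control, Ebf3 ranged from 17.2 to 48.2 CPM with a median of 39.1 CPM, and in MCU-KO from 16.02 to 109 CPM with a median of 38.0 CPM. The highest value, in MCU-KO mouse 2, stood apart from the second highest MCU-KO mouse at 52.7 CPM. The means were 37.6 ± 10.1 CPM (SD, n = 8) and 44.0 ± 28.6 CPM (SD, n = 8). The log2 fold change was 0.23 (95% interval -0.42 to 0.88), and without MCU-KO mouse 2 it was -0.11. Its relative Ebf1 had 6.66 ± 4.61 CPM (SD, n = 8) in control and 11.3 ± 10.2 CPM (SD, n = 8) in MCU-KO, a log2 difference of 0.76 (95% interval -0.65 to 2.17). Ebf3 exceeded Ebf1 per kb of exon in 8 of 8 control mice and in 7 of 8 MCU-KO mice. Over the whole list of 8 relatives of the factors, 4 were tested, all 4 had a positive log2 fold change with a median of 0.39, and 0 passed the threshold. Of all 12390 genes tested, 6241 were above 0. The intervals of the relatives were wide: 0 of the 4 lay wholly between -1 and 1, and that of Nr4a1 ran from -2.16 to 2.72.

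**Figure D2:**
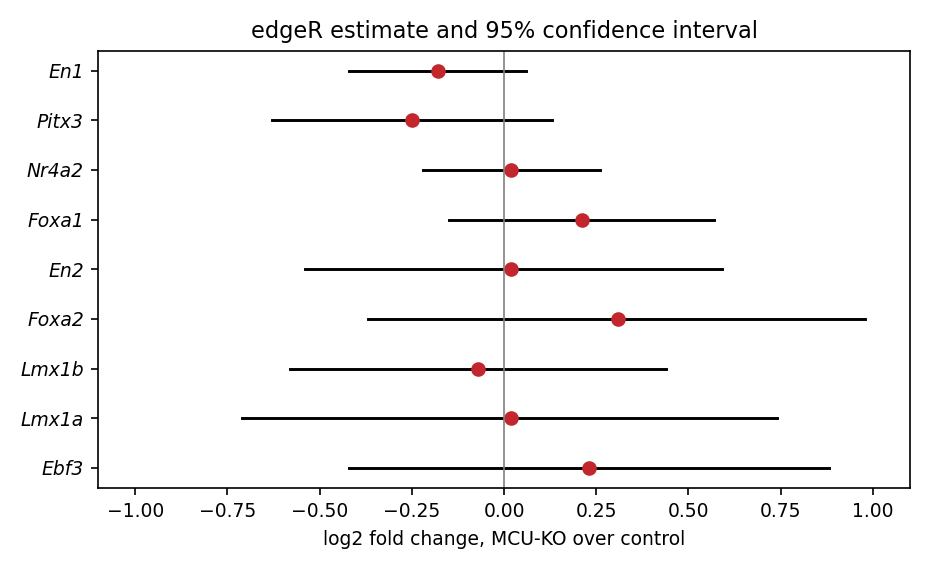
Log2 fold change of MCU-KO over control for the 9 factors, with points for the edgeR estimate and bars for the 95% interval (n = 8 mice per genotype). All bars cross 0, and they range in width from those of Nr4a2 and En1, the genes with the most counts, to that of Lmx1a.

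To compare the factors with one another, counts were divided by the merged exon length of each gene. In control mice, En1 had the highest level at 98.6 ± 17.9 CPM per kb (SD, n = 8), followed by Pitx3 at 75.5 ± 17.4 and Nr4a2 at 67.2 ± 8.32 CPM per kb (SD, n = 8). Foxa1 came next at 21.8 ± 5.25 CPM per kb, then En2 at 12.3 ± 3.68, Foxa2 at 10.5 ± 4.91, Lmx1b at 8.76 ± 2.34, Lmx1a at 5.72 ± 2.19 and Ebf3 at 4.07 ± 1.096 CPM per kb (SD, n = 8). Among the 12390 genes tested, En1 was above 94.2% on this scale and Ebf3 above 42.8%. For comparison, Th, which encodes the rate-limiting enzyme of dopamine synthesis, had 2512 CPM per kb in control. Markers of other cells ranged widely on this scale: Mbp of oligodendrocytes had 215, S100b of astrocytes 96.8 and Gad2 of GABAergic neurons 14.8 CPM per kb in control. Slc1a3 of astrocytes had 2.69 and Cx3cr1 of microglia 2.12 CPM per kb. The samples hold no library of unselected tissue, so mRNA of tagged neurons and of other cells cannot be told apart in these levels. En1, Pitx3 and Nr4a2 were each above all 6 other factors in 8 of 8 control mice, where the lowest of these 3 exceeded the highest of the 6 by 2.49-fold to 3.60-fold, and in 8 of 8 MCU-KO mice, by 1.53-fold to 3.15-fold. These 3 genes made up between 74.7% and 82.2% of the summed level per kb in control and between 68.4% and 83.6% in MCU-KO. The grouping was chosen from these levels and is a description.

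Neighbours in this order were compared within each control mouse by an exact two-sided sign-flip permutation test over all sign patterns, whose smallest possible p is 0.0078, with Benjamini-Hochberg adjustment over the 8 pairs. The order was set from the same control means, and 1 pair alone at the smallest p has an adjusted p of 0.062, so that a single pair cannot pass the threshold. In control, 0 of the 8 pairs had an adjusted p under 0.05, and 3 pairs had an unadjusted p under 0.05. The clearest step was from Nr4a2 to Foxa1, with a log2 ratio of 1.65 ± 0.26 (SD, n = 8), higher in 8 of 8 mice (exact permutation p = 0.0078, adjusted 0.062). En1 was above Pitx3 in 7 of 8 mice by 0.40 ± 0.29 (SD, n = 8) on the log2 scale, and Foxa1 above En2 in 7 of 8 mice by 0.86 ± 0.70 (SD, n = 8), both with an adjusted p of 0.062 in the same exact test. The adjusted p was larger for Pitx3 and Nr4a2 (adjusted p = 0.43, exact permutation test), En2 and Foxa2 (0.43) and Foxa2 and Lmx1b (0.65). It was also larger for Lmx1b and Lmx1a (0.15) and for Lmx1a and Ebf3 (0.15). These values do not show that the levels are equal. In MCU-KO mice, the same test gave an adjusted p of 0.031 for En1 over Pitx3, Nr4a2 over Foxa1, Foxa1 over En2 and Foxa2 over Lmx1b. Pitx3 was below Nr4a2 in 6 of 8 MCU-KO mice and above it in 5 of 8 control mice, with log2 ratios of -0.13 ± 0.33 (SD, n = 8) and 0.14 ± 0.40 (SD, n = 8). The order also rests on the lengths used, since with the length of the longest transcript of each gene the log2 ratio of Lmx1a to Ebf3 was -0.46 in place of 0.41.

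The factors differed in how much they varied between mice of a genotype. The biological coefficient of variation fitted by edgeR, which removes counting error, was 17.9% for En1, 18.1% for Nr4a2, 25.6% for Foxa1, 26.5% for Pitx3, 35.5% for Lmx1b, 39.0% for En2, 44.0% for Ebf3, 46.0% for Foxa2 and 49.8% for Lmx1a. For genes of the same average level, the fitted trend gave 21.0% at En1, 20.6% at Nr4a2 and 61.3% at Lmx1a. Of the 9 genes, 7 lay below the trend and Pitx3 and Ebf3 above it, at 26.5% against 26.2% and at 44.0% against 40.8%. The fit draws the value of each gene towards this trend, so nearness to it is partly built in.

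**Figure D3:**
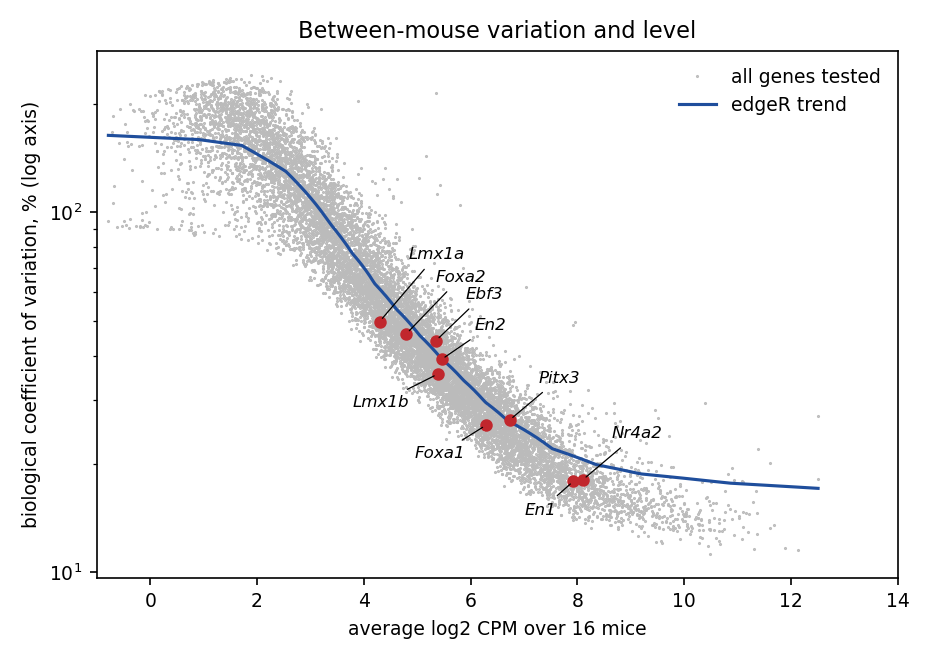
Biological coefficient of variation between mice (%, log axis) against average log2 CPM over 16 mice, with grey points for the 12390 genes tested, a blue line for the trend fitted by edgeR and red points for the 9 factors. The factors lie near the trend, towards which the fit draws each value, and run from 17.9% for En1 to 49.8% for Lmx1a.

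Whether the factors varied together from mouse to mouse was examined over 16 mice after the mean of each genotype was removed. The 36 pairs of factors and the 9 relations with the mean log2 CPM of Th, Slc6a3, Slc18a2 and Ddc were tested with 100000 permutations within genotype. Of these 45 relations, 0 had an adjusted p under 0.05 (permutation test with Benjamini-Hochberg adjustment) and 2 had an unadjusted p under 0.05. Pearson's r ranged from -0.49 to 0.61 with a median of 0.12, and 21 of the 36 pairs were above 0. The highest r was that of Lmx1b and Ebf3, 0.61 (p = 0.032, adjusted p = 0.69, permutation test), with a Spearman's rho of 0.54 (p = 0.04, adjusted 0.64), and r was 0.40 without the 2 mice farthest from the median of Lmx1b. Foxa1 and En1 had r = 0.53 (p = 0.045, adjusted p = 0.69, permutation test) and rho = 0.56 (p = 0.034, adjusted 0.64), and r was 0.45 without 2 mice. Pitx3 and Nr4a2, which act on the same genes, had r = 0.41 (p = 0.14, adjusted p = 0.69, permutation test) and rho = 0.41, and r was 0.19 without 2 mice. With the dopaminergic marker mean, r ranged from -0.12 for Lmx1a to 0.49 for Nr4a2. All values of a mouse come from 1 library and share its depth and its share of other cells.

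**Figure D4:**
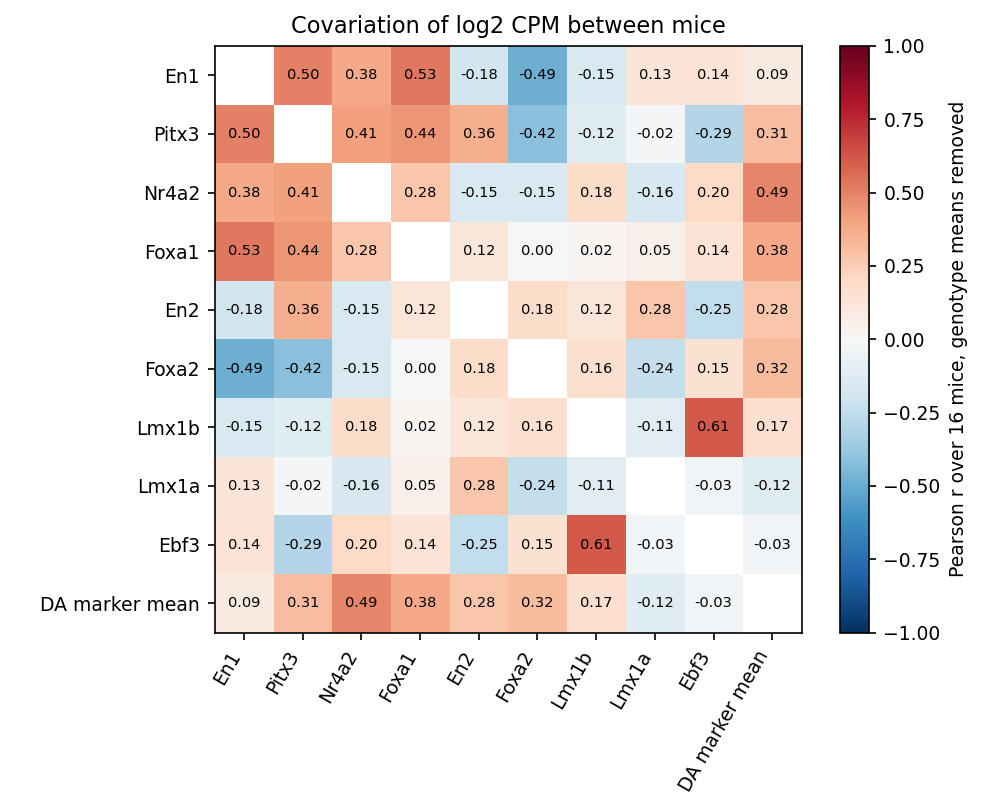
Pearson's r of log2 CPM over 16 mice, genotype means removed, for each pair of the 9 factors and for each factor with the mean of Th, Slc6a3, Slc18a2 and Ddc. Red marks positive and blue negative values, which run from -0.49 for Foxa2 with En1 to 0.61 for Lmx1b with Ebf3.

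The genes whose levels followed each factor most closely were sought among 8936 genes with at least 10 counts in every mouse, by Pearson's r over the same 16 mice. These values are the highest among those genes and are a description. For Nr4a2 they were Lrrc73 (0.83), Cend1 (0.82) and Gapdh (0.82). For Pitx3 they were Emc6 (0.85), Trib2 (0.82) and Trim35 (0.81), and for En1 Pfn1 (0.81), Calm3 (0.80) and Pank3 (0.80). For En2, Pim2 (0.85), Zfp369 (0.77) and 1700025G04Rik (0.76) came first. Foxa1 was closest to Msi2 (0.77), Zfyve9 (0.77) and Limk1 (0.76), and Foxa2 to Tmem184c (0.88), Ube2d3 (0.82) and Fat3 (0.81). For Lmx1b the genes were Wars (0.87), Zdhhc8 (0.85) and Slc5a3 (0.84), and for Ebf3 Coa7 (0.83), Frmpd1 (0.82) and Sec23b (0.80). Lmx1a was closest to Zbtb17 (0.86), Ppp1r15b (0.83) and Ptpn12 (0.82), and these values fell to 0.26, 0.34 and 0.28 without the 2 mice farthest from the median of Lmx1a.

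Genes that act beside the 9 factors were taken from a list of 16 midbrain factors and cofactors, all of which were tested. Of them, 0 had an adjusted p under 0.05 (by the quasi-likelihood test of edgeR, Benjamini-Hochberg adjusted), 10 log2 fold changes were above 0 and 6 below, and the median was 0.09. The smallest p was that of Ldb1, the adaptor that links LIM homeodomain factors such as Lmx1a and Lmx1b into larger complexes. Ldb1 had 89.2 ± 10.6 CPM (SD, n = 8) in control and 70.3 ± 16.7 CPM (SD, n = 8) in MCU-KO. The log2 difference was -0.34 (95% interval -0.67 to -0.02, unadjusted p = 0.0384, adjusted p = 1.00, quasi-likelihood test of edgeR).

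Downstream of the factors, 17 genes reported as their targets were examined, of which 4 are the dopaminergic markers. All 17 were tested and 0 had an adjusted p under 0.05 (by the quasi-likelihood test of edgeR). Log2 fold changes were above 0 for 6 and below 0 for 11, with a median of -0.06 against 0.00 for all genes, and 16 of the 17 had a 95% interval between -1 and 1. The smallest p was that of Klhl1, an actin-binding protein of neurons, with 154 ± 39.0 CPM (SD, n = 8) in control and 200.2 ± 50.6 CPM (SD, n = 8) in MCU-KO. The log2 difference of 0.38 (95% interval 0.02 to 0.74) had an unadjusted p of 0.0385 and an adjusted p of 1.00 in the quasi-likelihood test of edgeR. Among the markers, the transporter gene Slc18a2, a target of Nr4a2, had the smallest p, with a log2 fold change of 0.20 (95% interval -0.06 to 0.45).
The glial markers had a median log2 fold change of 0.28 (astrocytes), 0.15 (oligodendrocytes) and 0.30 (microglia), with 0 genes past the threshold. The smallest p in each of these lists was that of Aldh1l1 in astrocytes (log2 fold change 0.82, standard error 0.50), Mog in oligodendrocytes (0.52, standard error 0.29) and C1qa in microglia (0.67, standard error 0.35). The mean of the astrocyte, oligodendrocyte, microglia and endothelial markers was used as a covariate, called the glial covariate. With it, the log2 fold changes of the 9 factors lay between -0.22 for Pitx3 and 0.31 for Foxa2. In that fit, 0 of the factors had an adjusted p under 0.05 (by the quasi-likelihood test of edgeR).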

How the data were processed

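RiboTag RNA-seq libraries of 8 control and 8 MCU-KO mice (1 library per mouse) were compared by the genotype in their labels. The authors trimmed the reads (Trim Galore in the submitters' notes), aligned them with STAR to mm10 and used HTSeq with an Ensembl annotation to count them, and deposited whole-number counts without normalization. Tool versions, strand setting and Ensembl release are not given in the sources used here. Molecular identifiers are not named in the sources used here, so reads are not taken as independent molecules and floors cover counting error only.

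Gene symbols and positions came from GENCODE M21 on GRCm38, which matched 24942 of 25006 identifiers. Counts were analysed with the quasi-likelihood test of edgeR 4.0.16 under R 4.3.3 after filterByExpr and TMM (Benjamini-Hochberg over 12390 genes, threshold 0.05), fitted on all 16 mice with genotype alone. DESeq2 1.42.0, which the study used, and limma 3.58.1 (voom) were alternatives, beside other normalizations, filters, covariates, a block for the mouse number and the omission of each mouse. Ratios within a mouse used counts plus 0.5 per kb of merged exon, and log2 CPM a prior count of 2. Exact and permutation tests used Python 3.11.15 and scipy 1.17.1, and plots matplotlib 3.10.9. The scripts were tested on simulated data. Promoters came from the RefSeq table (GRCm38.p6, 250 bases before the start site), which held windows for 8 of the 9 genes, and coding sequences from the GENCODE transcripts.

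The 9 genes and all other lists were chosen with earlier results of these data known, so no list is independent evidence. Named were the 9 genes, Mcu, the 4 dopaminergic markers, in each other list any gene past the threshold or, with none, that of smallest p, and the 3 genes most like each factor. Other genes are named as further members of those lists, with values only. No library was left out, and no 2 mice shared their counts: at least 13552 genes differed between any 2 of them. Some items of the lists are not reported here.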

Additional observations from a re-analysis of the deposited data

Results flagged for a closer look

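Among the 18 groups of 8 mice examined (9 factors in each genotype), 2 held a mouse whose gap to the nearest other mouse was a large part of the range of the group (above Dixon's 95% critical value), and chance sets about 1 in 20 groups apart, or 0.9 of 18. Control mouse 8 had the highest Nr4a2 level of its group, 348 CPM, with a gap of 0.62 of the range. MCU-KO mouse 2 had the highest Ebf3 level of its group, 109 CPM, with a gap of 0.60 of the range. Without MCU-KO mouse 2, the log2 fold change of Ebf3 was -0.11 in place of 0.23.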

How the results depend on the processing

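Of the 9 factors, 0 had an adjusted p under 0.05 in any of the 27 other fits (16 without 1 mouse each, and 11 with other settings). The count over all genes was 22 in the reported fit, 90 with DESeq2, 14 with the replicate block and between 18 and 24 without single mice. Same-numbered mice of the 2 genotypes did not deviate together (r between -0.061 and 0.031, over 0.1 in 0 of 8 pairs, and highest with the own number in 0 of 8), so the number was not taken as a pairing. En2 had a log2 fold change of -0.04 with the replicate block, -0.01 with limma-voom and -0.01 with Xist as covariate, in place of 0.02. Without single mice, the log2 fold change ranged from -0.03 to 0.08 for Nr4a2, from -0.12 to 0.15 for Lmx1a, from -0.13 to 0.06 for Lmx1b, from -0.13 to 0.12 for En2 and from -0.11 to 0.35 for Ebf3, so the direction of these 5 is not settled. Pitx3 and En1 stayed below 0 and Foxa1 and Foxa2 above 0 in those fits. In the reported fit, the interval still crossed 0 for Pitx3 (-0.63 to 0.13) and En1 (-0.42 to 0.06). It also crossed 0 for Foxa1 (-0.15 to 0.57) and Foxa2 (-0.37 to 0.98). A stable sign without single mice does not test the direction, so that of Pitx3, En1, Foxa1 and Foxa2 is not settled either. Ddc had 0.00 with the glial covariate, 0.00 with the dopaminergic covariate and -0.05 to 0.04 without single mice, and Tph2 had -1.68 with limma-voom, -1.54 with the replicate block and -0.48 to 0.74 without single mice. In the order of levels, 8 neighbouring pairs had an adjusted p under 0.05 when counts were not divided by length and 4 in MCU-KO mice, in place of 0. Undivided by length, the log2 ratio was -1.27 for Pitx3 over Nr4a2, -0.88 for Foxa2 over Lmx1b and -1.03 for Lmx1a over Ebf3, and with the longest transcript it was -0.46 for Lmx1a over Ebf3. In MCU-KO mice it was -0.13 for Pitx3 over Nr4a2 and -0.08 for En2 over Foxa2. For Foxa2 over Lmx1b it ranged from -0.05 to 0.35 without single control mice. The causes were not tested.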

Other observations

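Of 18 factors of early midbrain patterning, 8 had enough counts to be tested, and 0 of these 8 passed an adjusted p of 0.05 between the genotypes (quasi-likelihood test of edgeR, Benjamini-Hochberg adjusted), with a median log2 fold change of 0.11. Sim1, Fgf8, Corin and Helt, which are active in the embryonic ventral midbrain or its organizer, were at 0 in all 16 mice. The highest of the list was Wnt5a, a ligand of the ventral midbrain, with 25.7 ± 10.6 CPM (SD, n = 8) in control and 32.8 ± 21.9 CPM (SD, n = 8) in MCU-KO. The smallest p was that of Sox2, a factor of neural progenitors and glia, at a log2 difference of 0.68 (95% interval -0.63 to 1.99). Markers of endothelial cells had a median log2 fold change of -0.66 with 3 of 3 below 0, and the smallest p was that of Cldn5 at -0.98 (95% interval -3.19 to 1.22). The 2 markers of glutamatergic neurons went opposite ways, with a log2 difference of 0.49 for Slc17a6 (-0.33 to 1.31) and one below 0 for Slc17a7 (-3.78 to 1.59), which was at 0 in 3 control and 1 MCU-KO mice. Of the GABAergic neuron markers, Gad2 had the smallest p, at -0.33 (-0.92 to 0.26), and Tph2 was the 1 serotonergic marker tested, at 0.31 (-2.57 to 3.18). None of these marker genes had an unadjusted p under 0.05 in edgeR's test.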
